A study of Mus musculus with 4 samples.

Results

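The genes described here are the components of Wnt signalling that the array's annotation names: the Wnt ligands, the Frizzled and Lrp receptors, the secreted modulators of the Dickkopf, Sfrp, R-spondin and Wif1 families, and the intracellular parts from Porcn and the Dishevelled proteins to the TCF/LEF factors and the Groucho corepressors. Members were found by gene symbol, with no measured value in the rule, which gave 64 of 16593 named genes, read by 95 of 25697 probes on the array. The values are intensities from Illumina MouseRef-8 v2 beadchips, where a probe's value is a mean over many copies of its bead. The RNA was precipitated together with ribosomes that carried a hemagglutinin tag. Punches of the mediobasal hypothalamus were the tissue in both groups. The lineage group (2 arrays) held offspring of Pomc-Cre and RiboTag mice, in which Cre switches Rpl22 to a tagged form, so that every cell descended from a cell that once expressed the Cre carries the tagged ribosomal protein, whether or not it still expresses Pomc. In the virus-injected group (2 arrays) Pomc-Cre mice had received the AAV-DIO-RiboTag vector, which tags only cells that contain Cre after the injection, and the labels name these cells adult POMC neurons. All animals thus carried the Pomc-Cre driver. The labels state neither ages nor whether an array held 1 animal or a pool, so a p-value here reflects only how far these arrays scattered, and that scatter may be technical.

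Wnt proteins are secreted lipid-modified ligands that bind a Frizzled receptor together with the co-receptor Lrp5 or Lrp6. Without ligand, a complex of Axin, Apc and the kinase Gsk3 marks beta-catenin for destruction, and with ligand beta-catenin enters the nucleus and works with TCF/LEF factors, from which it displaces Groucho corepressors. Other Wnt signals pass through Dishevelled to the cytoskeleton without beta-catenin. In the hypothalamus the pathway is known for its part in the patterning of the early neuroepithelium, and Tcf7l2 is known as a gene of diencephalic neurons.

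Between 10982 and 12306 probes per array were detected, that is, had a detection p-value under 0.05 against the negative control probes of that array. Over the 39 member probes tested, log2 values of the virus-injected arrays correlated at 0.968 with each other and those of the lineage arrays at 0.946, against 0.909 to 0.938 for arrays of different groups; probes are not independent replicates. Pomc was detected on all 4 arrays, at 12.09 and 12.25 in the virus-injected group and 12.75 and 12.90 in the lineage group on the normalized log2 scale. Rpl22, the gene of the tagged ribosomal protein, lay at 8.50 and 9.11 against 7.63 and 8.08, and whether its probe reads the tagged form is not given in the sources used here. All 10 POMC neuron markers on the array were detected on at least 2 arrays. With 1 probe per gene, their normalized intensities summed to 32207.5 and 34748.5 in the virus-injected group and 36571.4 and 36508.5 in the lineage group. The brightest gene in that sum was Cartpt (log2 -0.06), ahead of Pomc. The lineage mean was higher for 7 and lower for 3 (Cartpt, Insr and Nkx2-1). At an unadjusted limma p under 0.05, 2 were higher, against 4.41% of all genes: Pomc (log2 0.65) and Pcsk1 (0.98). None of the 8 markers of the anterior pituitary, another tissue that makes Pomc, was detected on more than 1 array. In such bulk samples, fewer cells of a type and less RNA per cell cannot be told apart. Input RNA before precipitation was not analysed here.

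Of the 95 probes, 39 for 29 genes were detected on at least 2 arrays and were tested, and 52 were detected on none. The share tested was 41.1%, against 47.7% of all probes on the array. It was lowest among the ligands, where 5 of 28 probes passed. Of 19 ligand genes 4 were measured, Wnt2b, Wnt5a, Wnt7b and Wnt9a. The other 15 were not measured above background: Wnt4 was detected on 1 array, and Wnt1, Wnt2, Wnt3, Wnt3a, Wnt5b, Wnt6, Wnt7a, Wnt8a, Wnt8b, Wnt9b, Wnt10a, Wnt10b, Wnt11 and Wnt16 on none. Among 10 receptor genes, Fzd3, Fzd4, Fzd6, Fzd10 and Lrp6 passed, Lrp5 was detected on 1 array, and Fzd1, Fzd2, Fzd7 and Fzd8 on none. Of 15 genes for secreted modulators 8 passed, and Dkk1, Dkk2, Dkk4, Rspo2, Rspo4, Sfrp4 and Sfrp5 did not reach background on any array. Of 20 genes for intracellular parts 12 passed. Tcf7l1 was detected on 1 array, and Dvl2, Dvl3, Lef1, Nkd1, Tle2, Tle3 and Tle6 on none. Apc, Dkkl1, Dvl1, Fzd4, Fzd10, Tle1, Wnt2b and Wnt7b each had further probes that did not pass, so their values below rest on the remaining ones. A probe below background gives only an upper bound and does not show that a gene is silent.

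**Figure D1:**
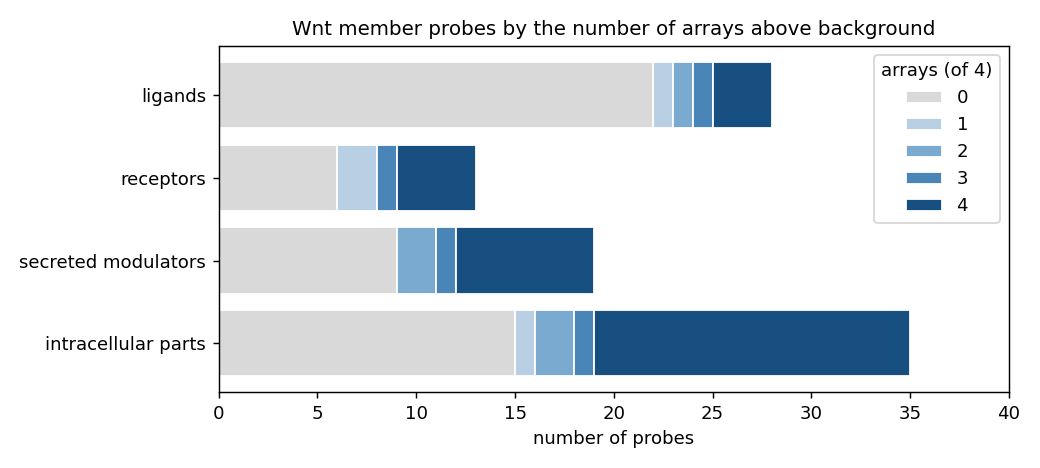
Number of member probes (horizontal axis) in each role, divided by the number of arrays, from 0 to 4, on which the probe was detected. Of the 28 ligand probes 22 were detected on no array, whereas 16 of the 35 probes for intracellular parts were detected on all 4.

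The genes that differed most between the groups were Dkk3, which was lower in the lineage group on all 3 of its probes, and Nkd2, which was higher. Tcf7l2 had lower means in the lineage group on all 3 of its probes, as had Sfrp2 and Tle5 on theirs, by smaller amounts. At an adjusted p of 0.05 the limma fit called 0 of the 39 member probes and 0 of the 12266 probes tested (0%). The lowest adjusted p among the members was 0.295. At an unadjusted p under 0.05 there were 11 member probes, for 8 genes. Of these, 3 of 39 probes were higher in the lineage group, against 4.84% of all probes tested, and 8 of 39 were lower, against 5.55%. Of the 8 lower probes 3 belong to Dkk3 and 2 to Tcf7l2, and probes of 1 gene are not independent of each other. The Wnt9a probe and the first Dkk3 probe, also among the 8, were detected on the virus-injected arrays only. They passed the detection filter through the group where they were higher, which favoured a lower lineage value. In a linear model without the moderation of eBayes, 4 member probes reached that p (10.3%), against 8.74% of all probes tested. They belonged to Ctnnb1, Dkk3, Fzd10 and Tle4, of which only Dkk3 was among the 8 genes above. Nkd2 and Tcf7l2 did not reach that p without moderation. The 2 arrays of a group did not overlap with those of the other for 10 member probes that were higher in the lineage group, against 21.9% of all probes, and for 12 that were lower, against 21.4%. The median log2 difference, lineage minus virus-injected, was -0.04 over the 39 probes and 0.0030 over all probes tested. The median size of a difference, sign aside, was 0.29 among the members and 0.20 among all probes.

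**Figure D2:**
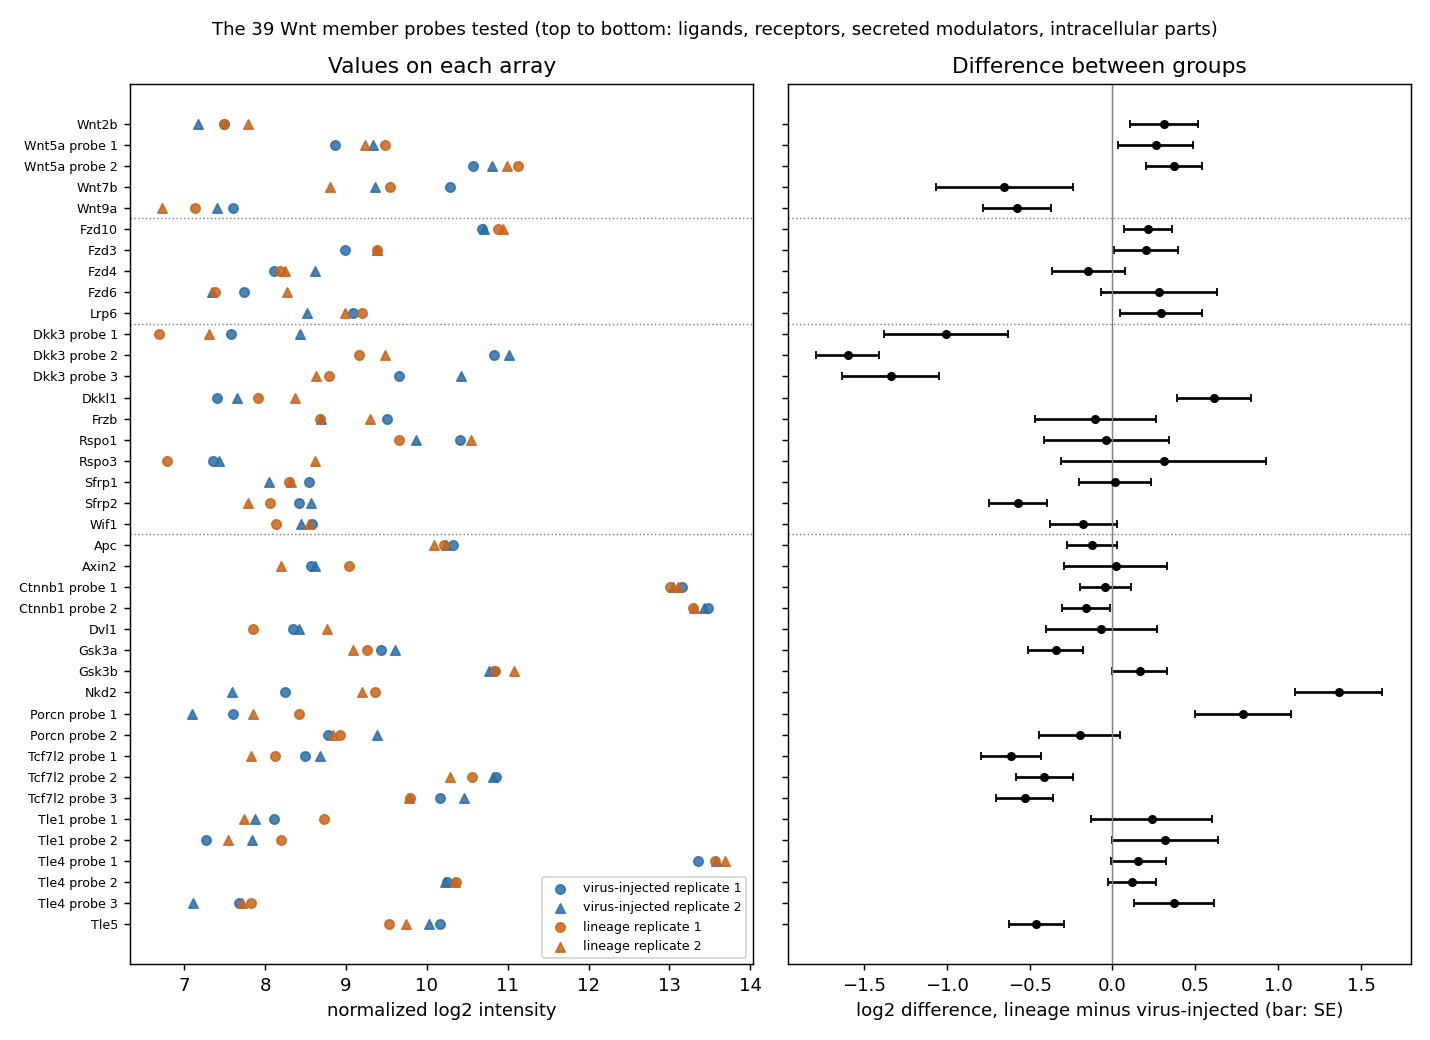
The left panel plots the normalized log2 intensity of each of the 39 probes on each array, with virus-injected arrays in blue and lineage arrays in orange (circles for replicate 1, triangles for replicate 2). The right panel plots the log2 difference with its standard error from the limma fit; the 3 Dkk3 probes lie lowest, the second at -1.60, and Nkd2 lies highest at 1.36. Values compare the groups within a probe and not 1 probe with another, and the Wnt9a and first Dkk3 probes were at background on both lineage arrays.

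Among the ligands, only Wnt5a was measured by 2 probes. It encodes a ligand best known for signals that do not use beta-catenin. On its second probe (probes are numbered in the order of their identifiers) it lay at 10.57 and 10.80 in the virus-injected group and at 11.12 and 10.99 in the lineage group. The groups did not overlap, with a log2 difference of 0.37 (SE 0.17, limma adjusted p = 0.529). The first Wnt5a probe had 8.86 and 9.34 against 9.48 and 9.23, and here the groups overlapped, with a difference of 0.26 (SE 0.23). Wnt7b, a ligand that drives vessel growth in the central nervous system, lay at 10.29 and 9.36 in the virus-injected group and at 9.54 and 8.81 in the lineage group. Its highest value came from virus-injected replicate 1, and its difference of -0.65 (SE 0.41, adjusted p = 0.632) ranged from -1.11 to -0.19 when 1 array was left out. Wnt2b, a ligand of the beta-catenin branch, was near background, at 7.49 and 7.17 against 7.49 and 7.79, and was detected on 1 of 2 virus-injected arrays. Wnt9a was detected on both virus-injected arrays, at 7.60 and 7.40, and on neither lineage array, at 7.13 and 6.72. Measured against the lowest detected signal of the lineage arrays it allowed no fold above 1, so no fold is given.

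The 5 receptor genes had log2 differences from -0.15 to 0.29, and no receptor probe reached an unadjusted p of 0.05. Fzd10, a Frizzled receptor, lay at 10.68 and 10.71 in the virus-injected group and 10.88 and 10.94 in the lineage group. The groups did not overlap and the log2 difference was 0.21 (SE 0.15, limma adjusted p = 0.649). Fzd3, which is needed for the guidance of many axons, had 8.98 and 9.38 against 9.38 and 9.39, so that virus-injected replicate 1 stood below the other arrays. Fzd4, the receptor for norrin as well as for Wnt ligands, had 8.11 and 8.61 against 8.18 and 8.24, with both lineage arrays inside the range of the other group. Fzd6, a receptor of planar polarity, had 7.74 and 7.34 against 7.38 and 8.27, and was detected on 3 of 4 arrays. The co-receptor Lrp6 had 9.08 and 8.51 against 9.19 and 8.98, a difference of 0.29 (SE 0.25).

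Dkk3 was the member with the largest difference. It encodes a secreted glycoprotein that is the divergent member of the Dickkopf family; unlike Dkk1 it is not known as a high-affinity inhibitor of Lrp6. On its second probe (ILMN_2746556) Dkk3 lay at 10.83 and 11.02 in the virus-injected group and at 9.17 and 9.48 in the lineage group, means of 10.92 ± 0.13 and 9.32 ± 0.23 (SD, n = 2 each). Both lineage arrays were below both virus-injected arrays, by a 3.03-fold difference in means (log2 -1.60, SE 0.19, limma adjusted p = 0.295). The third probe (ILMN_2852957) had 9.66 and 10.42 against 8.79 and 8.62, a 2.53-fold difference (log2 -1.34, SE 0.29, adjusted p = 0.330). The first probe (ILMN_1224173) had 7.58 and 8.43 against 6.68 and 7.31, did not reach the detection limit in the lineage group, and was at least 1.38-fold lower there (adjusted p = 0.477). That bound came mainly from virus-injected replicate 2, and without it the ratio to the lowest detected signal was 1.03. All 3 probes therefore kept the groups apart, and the virus-injected replicate 2 was the highest array on each. The first probe had passed the detection filter through the virus-injected group only, so its direction is no separate support for the other 2. The deposited intensities before any correction kept the groups apart on all 3 probes as well. On the second probe they were 2357 ± 72.4 (SE over 40 beads) and 2431 ± 86.0 (38 beads) in the virus-injected group, and 960 ± 34.4 (38 beads) and 1156 ± 43.6 (31 beads) in the lineage group. With 1 array left out the difference of the first probe lay between -1.43 and -0.58 (the latter without virus-injected replicate 2), that of the second between -1.76 and -1.44, and that of the third between -1.72 and -0.96. All differences of the first probe rest on lineage values at background, so their size is not measured. Without background correction the 3 differences were smaller, at -0.37, -1.15 and -0.82, and the second then passed (limma adjusted p = 0.0134). With the spread allowed to follow the brightness (eBayes with a trend), Dkk3 passed on its second probe (limma adjusted p = 0.000335) and on the third (adjusted p = 0.0147). That setting called 3 of 39 member probes, against 1.89% of all probes tested.

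**Figure D3:**
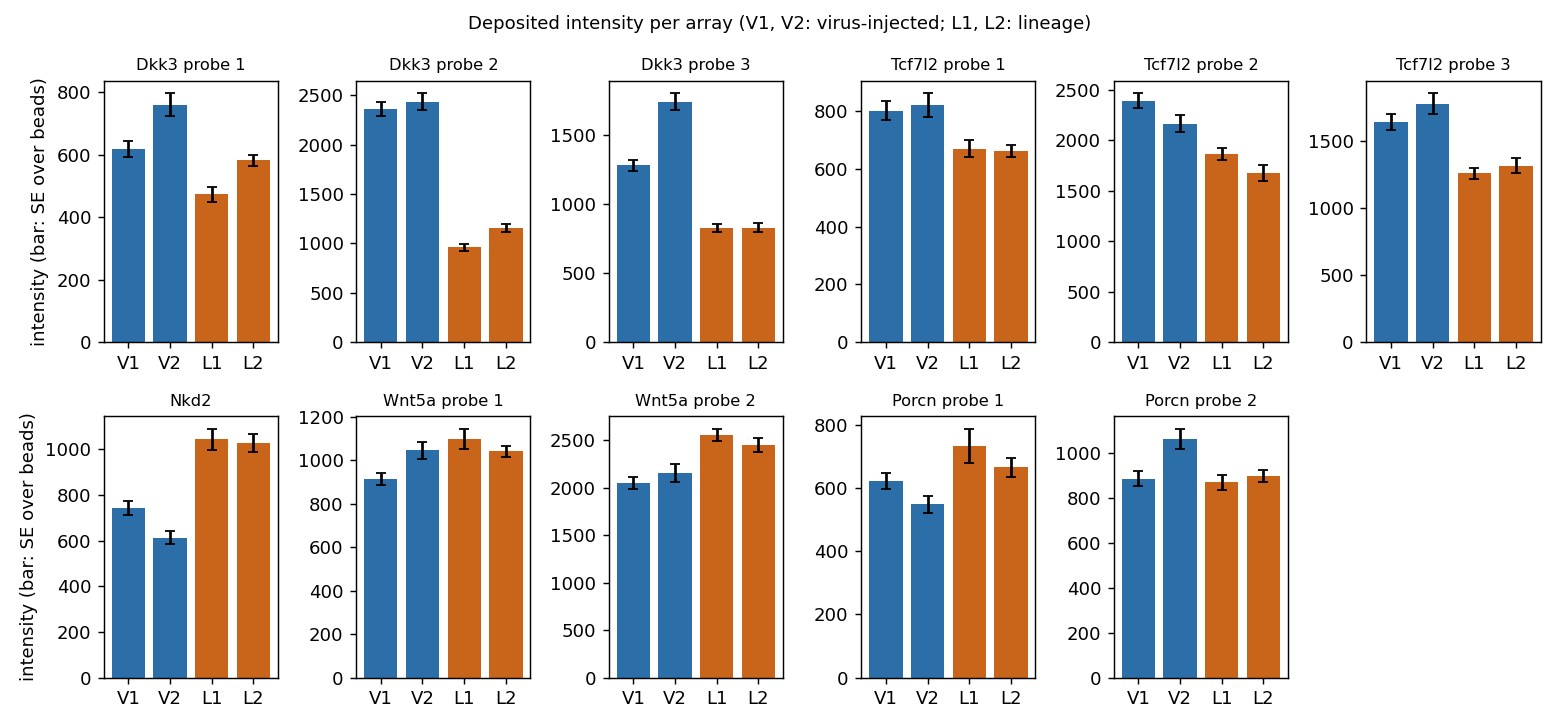
Deposited intensity on each array (V1 and V2, virus-injected; L1 and L2, lineage) for all tested probes of Dkk3, Tcf7l2, Nkd2, Wnt5a and Porcn, with the standard error over beads; each panel has its own axis from 0. On the second Dkk3 probe the virus-injected arrays lie at 2357 and 2431 and the lineage arrays at 960 and 1156, while the 2 Porcn probes differ in direction.

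Markers of other cells differed between the same arrays. Lists with more than 2 measured genes are given by the sum of their normalized intensities and by their count at an unadjusted p under 0.05. The other lists are given by their measured genes alone. Each gene was read by its tested probe of highest mean. Some, such as Mbp and Tacr3, had further tested probes whose values are not given here. Of 11 markers of neurons in neighbouring hypothalamic nuclei 8 were measured, and they summed to 12401 and 15099 in the virus-injected group and 2803 and 3033 in the lineage group. Of these 6 were lower in the lineage group, against 5.87% of all genes, with Avp (log2 -4.23) and Hdc (-1.92) the brightest, while Nr5a1 had a higher mean (0.22) and Foxb1 overlapped. Pmch, among the 6, was detected on the virus-injected arrays only, so it passed the filter through the group where it was higher. Crh, Hcrt and Sim1 from that list were detected on fewer than 2 arrays. For astrocytes, 6 of 10 markers summed to 11278 and 10028 against 8114 and 8227, with 2 lower (Gja1, -0.61, and Ntsr2, -0.47) and Gfap, Aqp4, S100b and Agt detected on fewer than 2. For oligodendrocytes, 5 of 8 markers on the array summed to 4195 and 4573 against 3026 and 2358, with 2 lower (Mbp, -1.18, and Opalin, -0.91) and Mog, Mobp and Ermn left out for the same reason. The mural cell gene Rgs5 had a log2 difference of -1.47, but Acta2 of 0.36, and these were the 2 measured of 9 endothelial and mural markers. For microglia 1 of 7 markers was measured (Aif1, log2 -0.56).

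The NPY neuron markers went the other way, 6 of 7 summing to 3247 and 3085 against 10056 and 9181, with Otp detected on fewer than 2 arrays. Of these 4 were higher in the lineage group (Npy, Ghsr, Acvr1c and Corin), against 4.41% of all genes. Corin was detected on the lineage arrays only, so it passed the filter through the group where it was higher. All 9 kisspeptin neuron markers were measured and summed to 17252 and 19387 against 23920 and 21451, a sum made up largely of Pdyn (log2 0.22). Of the 9 genes 5 were higher, among them Kiss1 at 6.71 and 7.41 against 9.65 and 9.06, Tac2 by at least 2.98-fold and Tacr3 by at least 3.06-fold, whereas Nhlh2 (-0.48) and Inhbb (-0.26) had lower means. The Tac2 and Tacr3 probes, too, were detected on the lineage arrays only and passed the filter through that group. Of 4 choroid plexus markers 2 were measured, Ttr with 7.70 and 7.49 against 9.44 and 9.24 (1.75) and Kl (-0.08), and of 5 tanycyte and ependymal markers Vim alone (0.70). The 10 pan-neuronal markers summed to 36847 and 35928 against 39041 and 39244, with Syt1 lower (-0.48). The part of any of these lists in the Dkk3, Tcf7l2 and Nkd2 differences was not tested.

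The other secreted modulators were measured by 7 probes of 7 genes. Sfrp2, a soluble Frizzled-related protein that binds Wnt ligands, lay at 8.42 and 8.57 in the virus-injected group and at 8.06 and 7.79 in the lineage group. The groups did not overlap, with a log2 difference of -0.57 (SE 0.17, limma adjusted p = 0.426). On lineage replicate 2 Sfrp2 was near background, with a detection p-value of 0.044. Sfrp1, of the same family, had 8.54 and 8.05 against 8.29 and 8.32, a difference of 0.01 (SE 0.22) with both lineage arrays inside the range of the other group. Frzb, also known as Sfrp3, had 9.50 and 8.68 against 8.68 and 9.30, and Wif1, which binds Wnt ligands directly, 8.58 and 8.44 against 8.13 and 8.54. Neither gene separated the groups. Rspo1, a ligand that amplifies Wnt signals through the Lgr4 to Lgr6 receptors, was well above background on all arrays, but its 10.41 and 9.86 against 9.65 and 10.55 differed more within the groups than between them. Rspo3 had 7.35 and 7.43 against 6.78 and 8.61, so that lineage replicate 2 alone was high, and its sign turned when that array was left out (-0.63). Dkkl1, a secreted protein related to Dkk3 and known from the testis, lay near background at 7.40 and 7.65 against 7.91 and 8.37. Its difference of 0.61 (SE 0.22, adjusted p = 0.473) was opposite in sign to that of Dkk3, and it was detected on 1 of 2 virus-injected arrays.

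Nkd2 encodes a Naked cuticle protein, which binds Dishevelled and restrains Wnt signals. It lay at 8.24 and 7.59 in the virus-injected group and at 9.36 and 9.20 in the lineage group, means of 7.92 ± 0.46 and 9.28 ± 0.11 (SD, n = 2 each). The groups did not overlap, with a 2.57-fold difference in means (log2 1.36, SE 0.26, limma adjusted p = 0.303). On virus-injected replicate 2 Nkd2 was near background, with a detection p-value of 0.035. Its deposited intensities were 743 ± 29.1 (SE over 46 beads) and 612 ± 28.6 (30 beads) against 1043 ± 46.0 (28 beads) and 1028 ± 38.8 (38 beads). With 1 array left out the difference lay between 1.04 and 1.70. It was 0.65 without background correction, and it passed with a trend (adjusted p = 0.0355). Nkd1 was at background on all arrays, so the pair cannot be compared.

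Tcf7l2 encodes the TCF factor through which beta-catenin reaches DNA in many tissues, and its 3 probes gave similar differences. The first probe (ILMN_1245997) had 8.49 and 8.67 in the virus-injected group and 8.12 and 7.83 in the lineage group (log2 -0.61, SE 0.18, limma adjusted p = 0.423). On lineage replicate 2 this probe was near background, with a detection p-value of 0.043. The second (ILMN_2641647) had 10.85 and 10.81 against 10.56 and 10.28 (log2 -0.41, SE 0.17, adjusted p = 0.503). The third (ILMN_3006739) had 10.17 and 10.46 against 9.79 and 9.78 (log2 -0.53, SE 0.17, adjusted p = 0.434). On each probe both lineage arrays were below both virus-injected arrays, in a range from 1.33-fold to 1.53-fold. Without background correction the first probe differed by -0.26, and without lineage replicate 2 the second by -0.27. The related genes Lef1 and Tcf7l1 were not measured on 2 arrays.

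The sequences before the transcription starts of Tcf7l2 and Nkd2 are shown because these genes lay at opposite ends of the intracellular parts. Each run is the 250 bases before a RefSeq start on GRCm38.p6, 5′ to 3′ on the gene's strand. Capitals mark the TCF/LEF motif, searched on both strands as CTTTGAA or as CTTTGAT, and also as CTTTGTA or as CTTTGTT. Nkd2 lies on the minus strand of chr13:73847632-73847881, and the Tcf7l2 starts on the plus strand of chr19:55741560-55741809 (start 1) and chr19:55895071-55895320 (start 2).
Nkd2: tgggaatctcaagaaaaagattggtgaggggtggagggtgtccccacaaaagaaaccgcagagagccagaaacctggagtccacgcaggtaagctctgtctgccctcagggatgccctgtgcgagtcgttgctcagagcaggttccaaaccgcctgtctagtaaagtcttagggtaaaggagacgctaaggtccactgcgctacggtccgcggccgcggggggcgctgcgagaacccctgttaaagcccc
Tcf7l2 start 1: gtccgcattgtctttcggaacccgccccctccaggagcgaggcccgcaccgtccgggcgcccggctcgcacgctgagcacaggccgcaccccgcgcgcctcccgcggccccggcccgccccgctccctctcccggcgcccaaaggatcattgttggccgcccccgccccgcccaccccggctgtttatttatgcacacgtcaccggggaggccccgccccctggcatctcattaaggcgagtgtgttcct
Tcf7l2 start 2: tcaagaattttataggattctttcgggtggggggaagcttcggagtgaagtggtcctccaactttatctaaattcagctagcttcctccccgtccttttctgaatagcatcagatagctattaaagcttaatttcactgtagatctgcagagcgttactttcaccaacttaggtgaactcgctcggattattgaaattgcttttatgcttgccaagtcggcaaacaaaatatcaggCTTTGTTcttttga
The windows of Nkd2 and of the first Tcf7l2 start held none of these letters, and the second Tcf7l2 start held CTTTGTT beginning 14 bases before the start. Of 21 such windows listed for 18 of the tested member genes 2 held the motif (9.52%), against 14.8% of 32851 windows of all genes. A match is a description of the letters and not a binding site.

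In the core of the beta-catenin machinery, from beta-catenin itself to its scaffolds and kinases, log2 differences lay between -0.34 and 0.16. Ctnnb1, the gene of beta-catenin, had 13.15 and 13.04 in the virus-injected group and 13.00 and 13.11 in the lineage group on its first probe, a difference of -0.04 (SE 0.15). The second Ctnnb1 probe differed by -0.16 (SE 0.14). Apc, the scaffold of the destruction complex, had 10.32 and 10.23 against 10.21 and 10.09 (log2 -0.12, SE 0.15). The 2 forms of the kinase differed in sign. Gsk3a had 9.43 and 9.60 against 9.26 and 9.09, without overlap (log2 -0.34, SE 0.17, limma adjusted p = 0.550), and Gsk3b 10.83 and 10.77 against 10.84 and 11.08 (log2 0.16, SE 0.16, adjusted p = 0.773). Axin2, a scaffold that is also a widely used target gene of beta-catenin signalling, had 8.57 and 8.62 against 9.03 and 8.20. Its lineage arrays lay on either side of the other group, and its difference of 0.02 (SE 0.31) ranged from -0.39 to 0.44 when 1 array was left out. Dvl1, a Dishevelled protein that relays the signal from the receptors, had 8.34 and 8.41 against 7.85 and 8.77, with the same spread between the lineage arrays. Porcn, the acyltransferase that attaches the lipid to Wnt ligands, had 2 probes that disagreed. The first was higher in the lineage group by 0.79 (SE 0.29; 7.60 and 7.09 against 8.42 and 7.85, detected on 1 of 2 virus-injected arrays), and the second lower by a log2 difference of -0.20 (SE 0.24; 8.78 and 9.38 against 8.92 and 8.84).

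Among the Groucho corepressors, Tle5 and Tle4 differed in sign. Tle5 is a short member that lacks the repeats with which the others recruit partners, and it lay at 10.16 and 10.03 in the virus-injected group and at 9.54 and 9.74 in the lineage group. The groups did not overlap (log2 -0.46, SE 0.16, limma adjusted p = 0.464). Tle4 was at 13.35 and 13.58 against 13.56 and 13.68 on its first probe, where the groups overlapped (log2 0.16). The second probe had 10.24 and 10.23 against 10.36 and 10.35 (0.12, SE 0.14) and the third 7.68 and 7.11 against 7.82 and 7.71 (0.37, SE 0.24, detected on 1 array of each group), both without overlap. The 2 Tle1 probes had differences of 0.24 (SE 0.36) and 0.32 (SE 0.32), with lineage replicate 1 the highest array on both.

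**Figure D4:**
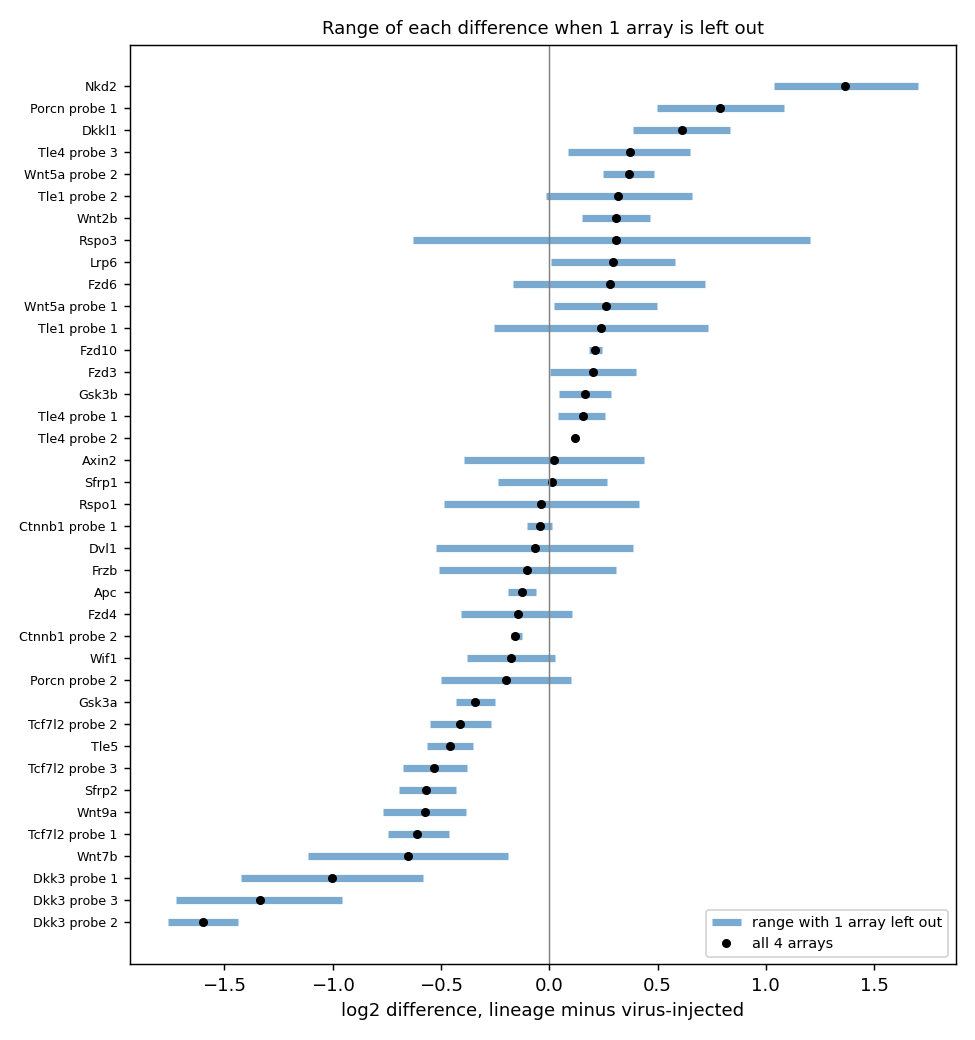
Log2 difference of each member probe (black points) and the range of the 4 values obtained when 1 array was left out (blue bars), ordered by size. Of 39 probes 26 kept 1 sign, 13 lower and 13 higher in the lineage group, among them all Dkk3 and Tcf7l2 probes and Nkd2. Where the groups do not overlap, the sign is kept apart from effects of renormalization, so for these genes it is no separate support. Of all probes tested, 21.9% did not overlap and were higher in the lineage group, and 21.4% were lower.

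Further genes of the pathway were read from lists, with the probe of highest mean for each gene. Some of them, Id2, Gpc3 and Daam1 included, had further tested probes whose values are not given here. Over these lists 55 genes were measured, of which 2 were higher in the lineage group at an unadjusted p under 0.05, against 4.41% of 8360 genes, and 3 were lower, against 5.87%. None passed after adjustment. Of the extracellular regulators 3 of 15 genes on the array were measured. Gpc3, a glypican of the cell surface, lay at 12.04 and 12.20 in the virus-injected group and 11.22 and 11.35 in the lineage group (log2 -0.83, SE 0.16, limma adjusted p = 0.303). Gpc4, another glypican, went the other way, from 9.95 and 10.42 to 10.57 and 10.92 (log2 0.56, SE 0.24), and Kremen2, a receptor for Dkk1, differed by 0.05. Wls, the carrier that Wnt ligands need for secretion, was detected on fewer than 2 arrays. Of the receptors and ligases of the R-spondin arm, Rnf43 differed by 0.40 and Znrf3 by 0.22, with overlapping groups, and Lgr5 and Lgr6 were not measured on 2 arrays.

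Of 15 genes of alternative receptors and planar polarity on the array 5 were measured, and none reached an unadjusted p of 0.05. Daam1, a formin downstream of Dishevelled, differed by 0.48 (SE 0.20), its relative Daam2 by -0.27 (SE 0.15) and the cadherin Celsr3 by 0.15 (SE 0.14). Ror1, Ror2 and Ryk, receptors of Wnt5a, were detected on fewer than 2 arrays. All 20 enzymes and partners of the destruction complex on the array were measured, with a median difference of -0.03. In this list Frat2, a Gsk3-binding protein, differed by 0.39 (SE 0.15, limma adjusted p = 0.477), Apc2 by -0.49 (SE 0.19) and Csnk2a1, a casein kinase subunit, by 0.47 (SE 0.28). Of 14 nuclear partners 1 was lower at an unadjusted p under 0.05, the deacetylase Hdac1 (log2 -0.63, SE 0.23). Ctnnbip1, an inhibitor of the binding of beta-catenin to TCF factors, differed by -0.52 (SE 0.23) and the coactivator Bcl9l by -0.29 (SE 0.15).

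Genes known from other tissues as Wnt targets did not share a direction, with a median of -0.02 over 13 measured genes of 24 on the array. Id2, an inhibitor of helix-loop-helix factors, lay at 10.05 and 10.20 in the virus-injected group and 8.96 and 9.11 in the lineage group (log2 -1.09, SE 0.16, limma adjusted p = 0.295). Jun, also an immediate early gene, had 9.14 and 9.25 against 10.02 and 10.24 (log2 0.93, SE 0.17, adjusted p = 0.303). The cell adhesion gene Nrcam differed by 0.30 (SE 0.15). In 6 of the 13 genes the lineage mean was higher, and in 7 lower.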

How the data were processed

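Per the labels' protocols, RNA precipitated through the tag was extracted, amplified and biotin-labelled. The deposited average intensity, standard error over beads and detection p-value of each of 25697 probes are GenomeStudio output, as the submitters' processing notes name that tool; its version is not given in the sources used here. The deposited signal means differed between arrays (1111 to 1192). A further deposited table of intensities the authors processed, each column a straight line of the array's own intensity with medians from 122 to 134, served as an alternative. All 4 arrays shared 1 beadchip; positions differed between groups, so position and group cannot be told apart.

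Intensities were processed with neqc of limma 3.58.1 (R 4.3.3): normexp from the detection p-values, offset 16, quantile normalization and log2. Probes with a detection p under 0.05 on at least 2 of 4 arrays were tested in 1 lmFit and eBayes fit over 12266 probes. Each probe had 2 residual degrees of freedom, to which eBayes added prior ones estimated from all probes tested. The SEs and p-values of the fit therefore rest partly on the variance of other probes. Tests were two-sided and adjusted by Benjamini-Hochberg over all probes tested. An exact permutation of 2 against 2 arrays cannot go below 0.333. The code was tested on simulated data. SD is over 2 arrays, and precision is limited by their number. Bead standard errors of the tested members were at most 8.39% of the intensity. For a probe at background on both arrays of 1 group, a fold is a lower bound against the lowest detected signal of each array. Probe names are those of the platform annotation (1 symbol for 23978 probes, several for 0, none for 1719), and updating through Entrez identifiers changed 0.

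The members and lists were chosen with earlier results of these data known. Every member is accounted for; from each other pathway list the 3 genes of smallest p are named, and marker genes were named after their values were seen. Replicate numbers did not pair the arrays in the labels. Alternatives were no background correction, other scalings, other filters, other variance models, a replicate block, the authors' values and leaving out each array. Promoter sequences are from RefSeq.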

Additional observations from a re-analysis of the deposited data

How the results depend on the processing

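Dkk3, Nkd2 and Tcf7l2 kept their direction on every probe under all alternatives run for them (the first Dkk3 probe was not tested with detection on all 4 arrays required). With 1 array left out, this follows largely from groups that did not overlap. Without background correction, other members also had smaller differences: Dkkl1 0.23, the first Porcn probe 0.29, Sfrp2 -0.24, Wnt7b -0.42 and Wnt9a -0.20. The Wnt9a value rests on lineage arrays at background. No probe passed an adjusted p of 0.05 in the fit as reported; 45 probes passed without background correction, 5 with median scaling, 232 with a trend and 1 with the authors' values. Of the members, 1 passed without background correction, Dkk3 on its second probe, and 3 with a trend. Members at an unadjusted p under 0.05 numbered 11 as reported, 4 without moderation, 7 with the authors' values, and 3 to 8 with 1 array left out. Over all probes there were 1275 as reported, 2040 with no filter and 784 to 1220 with 1 array left out. The 5 genes of the other lists became 9 without background correction, 8 with no filter, 10 with a trend, 9 without moderation. The share of all probes at that p moved as well, from 10.4% as reported to 12.2%, 7.94%, 13.5% and 8.74% in these settings. The median of the members ranged from -0.16 to 0.026 with 1 array left out. The cause was not tested. Same-numbered arrays did not deviate together (r = -0.0241). With a replicate block 0 probes and 0 members passed, and 11 members had an unadjusted p under 0.05 (28.2%, against 9.41% of all probes).

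With 1 array left out, 13 probes turned sign: Frzb ranged from -0.51 to 0.31, Rspo1 from -0.49 to 0.41, Axin2 from -0.39 to 0.44, the first Ctnnb1 probe from -0.10 to 0.014, Fzd4 from -0.41 to 0.10, Sfrp1 from -0.24 to 0.27, the second Porcn probe from -0.50 to 0.10, Wif1 from -0.38 to 0.027, Dvl1 from -0.52 to 0.39, Tle1 from -0.26 to 0.73 and -0.017 to 0.66, Fzd6 from -0.17 to 0.72 and Rspo3 from -0.63 to 1.21. With 1 array left in a group it was assumed to vary like the other group.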
